A study of Mus musculus with 2 samples.

Results

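The genes described here encode the FXYD regulators of the sodium pump, Fxyd1 to Fxyd7, and the 3 subunits of the epithelial sodium channel ENaC, Scnn1a, Scnn1b and Scnn1g. Members were chosen by gene symbol, as every non-control probe of these symbols on both arrays, and gave 10 genes and 11 probes of the 29923 genes and 39429 probes measured. The families were selected with the ratios of this comparison known, so the members' ratios are given as a description with no test. Ureters of mouse embryos (strain NMRI) at E18.5 were compared on 2 two-colour arrays. Each array set Pparg-cKO RNA, labelled Pax2-cre/+; Pparg(fl/fl), against control RNA, labelled Pparg(fl/?). Per the study's methods the controls were littermates without the cre transgene, so that they carry unrecombined floxed alleles, and the label leaves their second allele unstated. Female pools were paired in replicate 1 and male pools in replicate 2, with exchanged dyes. This cre acts in epithelia that derive from the nephric duct, the lining of the ureter among them, and not in the muscle and connective tissue around it. Both arrays lay on the same slide and came from the same scan, and sex, dye orientation and array changed together, so that these cannot be told apart.

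FXYD proteins are small proteins that cross the membrane once and bind the alpha and beta subunits of the Na,K-ATPase, whose affinity for sodium and potassium and whose turnover they adjust. Each family member has its own tissues, among them muscle, kidney tubule, colon and brain. ENaC lets sodium enter epithelial cells across the apical membrane, and the sodium pump moves it out on the basolateral side. In tight epithelia such as the renal collecting duct and the urothelium this pair of steps sets the rate of sodium uptake, under the control of aldosterone.

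All ratios below are Pparg-cKO over control on the log2 scale, in the direction of the deposited value table. By the dye labels, the red channel held control RNA in replicate 1 and Pparg-cKO RNA in replicate 2, which runs the other way on both arrays. If they are right as written, every "higher" and "lower" is exchanged, while sizes and p-values stay. The deposited direction is also that of the study's text and tissue sections. Pparg itself, the targeted gene, had a processed signal of 12357 against 6113 in the female pools and of 12930 against 6688 in the male pools, the Pparg-cKO value first, and a mean log2 ratio of 0.97 ± 0.017 (SD, n = 2 arrays). Whether this probe falls within the exons that cre removes was not examined here, and it is not used to check the genotype. By in situ hybridisation, the study found a Pparg transcript lacking those exons in mutant ureters, with raised expression at E18.5. Processed signals are scanner intensities in arbitrary units, corrected for background and dye, and compare pools for one probe but not one probe with another. The median signal over spots lay between 59.0 and 65.3 in the 4 channels, and no spot was saturated.

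Of the members, Fxyd4 had the largest ratio on each array, higher in Pparg-cKO ureters. It encodes CHIF, the corticosteroid hormone-induced factor, which raises the pump's affinity for sodium in the collecting duct and distal colon. Its probe, on chromosome 6 at 117883603 to 117883662 (mm9, minus strand), had a processed signal of 536 in the female Pparg-cKO pool against 77.4 in the female control pool. In the male pools the signals were 596 and 109. Both Pparg-cKO pools were thus far above both control pools. Here and below, the share of all genes whose pools separate by genotype was not counted, so such a separation only describes the signals. The log2 ratio was 2.53 for the female pair and 2.24 for the male pair, a mean of 2.38 ± 0.21 (SD, n = 2 arrays) and a 5.21-fold higher level. The 4 spots of the probe ranged from 2.42 to 2.61 on the female array and from 2.16 to 2.30 on the male array, so that the arrays differed by more than the spots within them.

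A fold rule took every gene that differed by 1.5-fold or more one way on both arrays and whose brighter channel reached a processed signal of 100 on both. Of 14015 genes bright enough for it, 258 passed (1.84%), 111 of them higher (0.792%) and 147 lower (1.05%). Of the 10 members, 7 were bright enough, and Fxyd4 was the one that passed. The same contrast was known when the members were chosen, so nothing is read from that count. Among the 111 higher genes Fxyd4 ranked 11 by mean ratio.

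**Figure D1:**
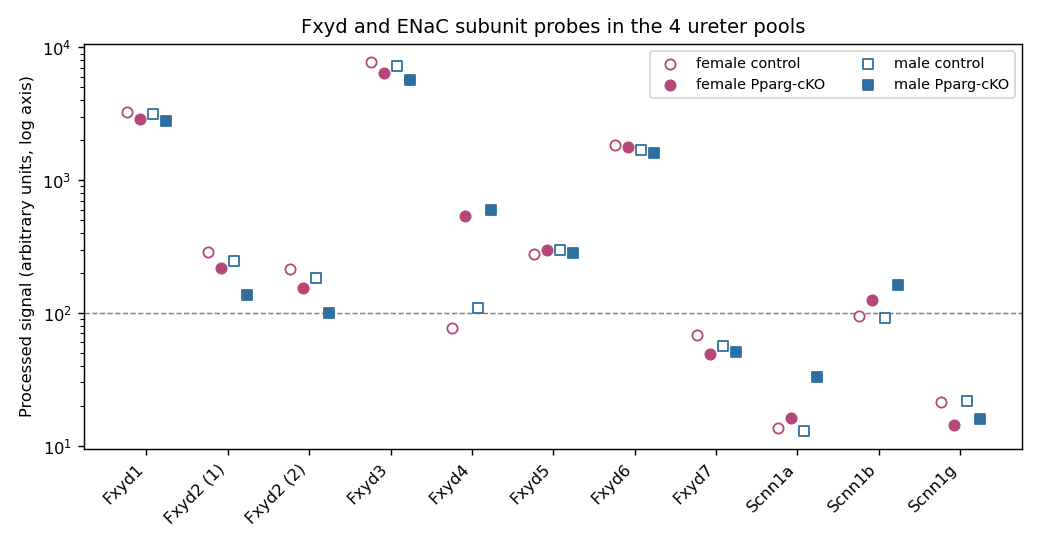
Processed signal (arbitrary units, log axis) of each Fxyd and ENaC subunit probe in the 4 pools, with open symbols for control, filled symbols for Pparg-cKO, circles for female and squares for male. The dashed line marks a signal of 100, and signals compare pools within a probe only. Fxyd4 is at 536 and 596 in the Pparg-cKO pools and at 77.4 and 109 in the control pools.

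The window around the transcription start of Fxyd4, 250 bases before to 50 bases after it (RefSeq, GRCm38.p6, minus strand, chr6:117937286-117937585), is shown because Pparg encodes a transcription factor and Fxyd4 had the largest ratio of the members. PPARG binds DNA with RXR at 2 copies of AGGTCA with 1 base between them. The capitals mark the place closest to that repeat, which differs from it in 2 bases, reads as the repeat on the opposite strand and begins at position -140 from the start.

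Fxyd4: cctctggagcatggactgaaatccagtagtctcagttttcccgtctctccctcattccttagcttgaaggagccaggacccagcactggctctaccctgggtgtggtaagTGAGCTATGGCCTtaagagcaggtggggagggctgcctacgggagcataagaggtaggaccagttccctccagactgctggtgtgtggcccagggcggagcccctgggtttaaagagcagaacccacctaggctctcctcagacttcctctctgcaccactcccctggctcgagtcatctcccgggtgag

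Among 32851 RefSeq windows of the same length, searched on both strands, 3.86% held the repeat with up to 2 mismatches, 0.554% with up to 1 and 0.0396% exactly. The half-site AGGTCA alone stood in 16.3% of them. Windows were found for 7 members, Fxyd1, Fxyd3, Fxyd4, Fxyd5, Fxyd6, Scnn1b and Scnn1g. Fxyd4 was the one with the repeat at up to 2 mismatches, and Scnn1b the one with an exact half-site. Fxyd2, Fxyd7 and Scnn1a had no entry. These matches describe letters in the windows, and no binding was measured here. A stretch of the Scnn1b window (GRCm38.p6, plus strand, chr7:121864866-121864951) is shown with its half-site in capitals, read on the opposite strand and beginning at position -132 from the start.

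Scnn1b: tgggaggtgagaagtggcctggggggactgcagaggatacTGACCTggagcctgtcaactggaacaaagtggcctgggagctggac

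The genes next to Fxyd4 did not share its ratio. Within 100 kb of its probe, 6 other genes were measured, and none passed the fold rule or an adjusted p of 0.05 by limma. For comparison, limma called 169 of 22499 genes tested at that threshold (0.751%), 86 higher (0.382%) and 83 lower (0.369%). The nearest, Hnrnpf, an RNA-binding protein gene whose probe lies closest (-8082 bases along the chromosome), had log2 ratios of 0.10 for the female pair and 0.38 for the male pair. Zfp239 and Zfp637, zinc finger genes farther off, were at -0.26 and -0.21 and at -0.05 and -0.21.

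**Figure D2:**
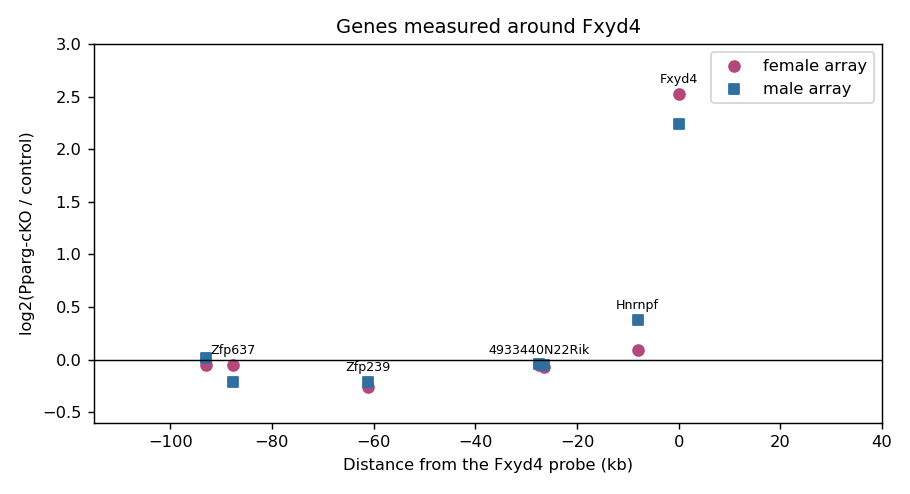
log2 ratio of Pparg-cKO over control on the female (circles) and male (squares) array for each gene measured within 100 kb of the Fxyd4 probe, against the distance from that probe in kb. Fxyd4 is at 2.53 and 2.24, and the other 6 genes lie between -0.26 and 0.38.

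The genes whose pair of ratios lay nearest to that of Fxyd4, by the distance between the 2 log2 ratios among genes with a signal of at least 100, were Rnf186, Krt6a, Krt4, Slc6a14 and Msln. Rnf186, a RING-finger ubiquitin ligase gene, was at 2.68 and 2.26, a distance of 0.15, and had signals of 699 and 706 in the Pparg-cKO pools against 88.2 and 131 in the controls. Krt6a and Krt4, keratins of stratified epithelia, were at 2.31 and 2.30 and at 2.81 and 2.25. Slc6a14, an amino acid transporter driven by sodium and chloride, was at 2.18 and 2.24. Its signals were 111 and 129 in the Pparg-cKO pools against 8.53 and 13.01 in the controls, and by the scanner-processed signals its ratios were 3.71 and 3.32 against 2.79 and 2.45 for Fxyd4, so that its likeness to Fxyd4 depends on the processing. Msln, mesothelin, was at 2.48 and 2.62. With 2 arrays, this likeness rests on 2 values a gene.

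Fxyd2 was the next Fxyd gene in size, and in the other direction. It encodes the gamma subunit of the pump, known from kidney tubules, where it lowers the pump's affinity for sodium. The first of its 2 probes, at 45218281 to 45218340 on chromosome 9 (mm9), had a signal of 216 in the female Pparg-cKO pool against 286 in the control, and of 137 against 244 in the male pools. Its log2 ratio was -0.36 for the female pair and -0.72 for the male pair, a mean of -0.54 ± 0.25 (SD, n = 2 arrays). The second probe, at 45218302 to 45218361, read 155 against 215 and 99.2 against 183, with ratios of -0.50 and -0.73 and a mean of -0.62 ± 0.16. Both control pools were above both Pparg-cKO pools for each probe. The probes share 39 of their 60 bases and are not independent measurements. By either probe the male array was past 1.5-fold, at 1.65-fold and 1.66-fold lower, and the female array was not, at 1.29-fold and 1.41-fold. With median centring in place of loess the male ratios were -0.45 and -0.49, under 1.5-fold.

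Proximal tubule markers were read beside Fxyd2. Summed over the 5 markers fixed for that cell type, the signal was 177 in the female and 130 in the male Pparg-cKO pool. The control pools were at 226 and 253. Such sums mostly follow their brightest probes, here Lrp2 and Cubn. On both arrays 5 of 5 were lower, or 4 of 5 by the scanner-processed signals and the deposited table. Slc5a2 counts among the 5 at -0.17 and -0.02, and was well above background in 2 of the 4 pools. The endocytic receptor genes Lrp2 and Cubn were at -0.13 and -0.89 and at -0.39 and -0.54 on the female and male arrays, and Slc22a6, the organic anion transporter, was at -0.49 and -0.92. None of the 5 was called by limma in the main setting, with an adjusted p of 0.186 for Slc22a6 (range over the alternatives 0.0043 to 0.533, called without an offset) and of 0.273 for Cubn (0.115 to 1). Markers of the thick ascending limb (Umod, Slc12a1, Cldn16) were not well above background in any pool. Whether kidney tissue in the pools had a part in the Fxyd2 ratio was not tested. In whole ureters, fewer cells of a type and less RNA per cell cannot be told apart.

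The remaining Fxyd genes changed by at most 1.26-fold on either array. Fxyd3 encodes Mat-8, a regulator found in epithelia and in many carcinomas. Its signal was 6436 against 7714 in the female pools and 5658 against 7207 in the male pools, Pparg-cKO first. The ratios were -0.28 and -0.25, a mean of -0.27 ± 0.022 (SD, n = 2 arrays), so that the arrays lay closer together than for any other member and both control pools were above both Pparg-cKO pools. Its probe spans 31857207 to 31858634 on chromosome 7 (mm9), 1428 bases for a 60-base probe, and thus crosses at least 1 splice junction.

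Fxyd1 encodes phospholemman, the regulator of the pump in heart and skeletal muscle. Its signals were 2869 and 2771 in the female and male Pparg-cKO pools and 3261 and 3142 in the controls. The ratios were -0.27 and -0.06, with a mean of -0.16 ± 0.15 (SD, n = 2 arrays), and on the male array the spots spread from -0.22 to 0.09, on both sides of 0. The 5 skeletal muscle markers had a median mean ratio of -0.21 and did not share a direction, from Ckm, muscle creatine kinase, at -0.50 and -0.95 to Mylpf, a myosin light chain, at 0.09 and 0.06. The 5 smooth muscle markers, the main muscle of this tissue, had a median of -0.20 and did not share a direction either. Acta2 (0.11 and -0.52), Myh11 (-0.28 and 0.10) and Cnn1 (-0.37 and 0.11) had opposite signs on the arrays, and Tagln and Actg2 were lower on both. Median centring put the male ratio of Fxyd1 on the other side of 0, at 0.02.

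Fxyd5, dysadherin, which lowers cell adhesion through E-cadherin, had signals of 299 and 282 in the Pparg-cKO pools against 276 and 297 in the controls. Its ratio was 0.17 for the female pair and -0.08 for the male pair, so that the arrays went opposite ways. Fxyd6, phosphohippolin, a regulator known from brain and inner ear, was at 1777 and 1598 against 1843 and 1695, with ratios of -0.10 and 0.01 and spots on both sides of 0 on both arrays. Fxyd7, a regulator found mainly in brain, was dim, at 48.8 and 50.4 against 67.9 and 56.1, with ratios of -0.33 and -0.16. For Fxyd5 and Fxyd6 the pools of the genotypes overlapped, and for Fxyd7 both controls were above both Pparg-cKO pools. Under median centring the male ratio of Fxyd5 was 0.20, the same direction as the female one, and that of Fxyd7 was 0.005, on the other side of 0.

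**Figure D3:**
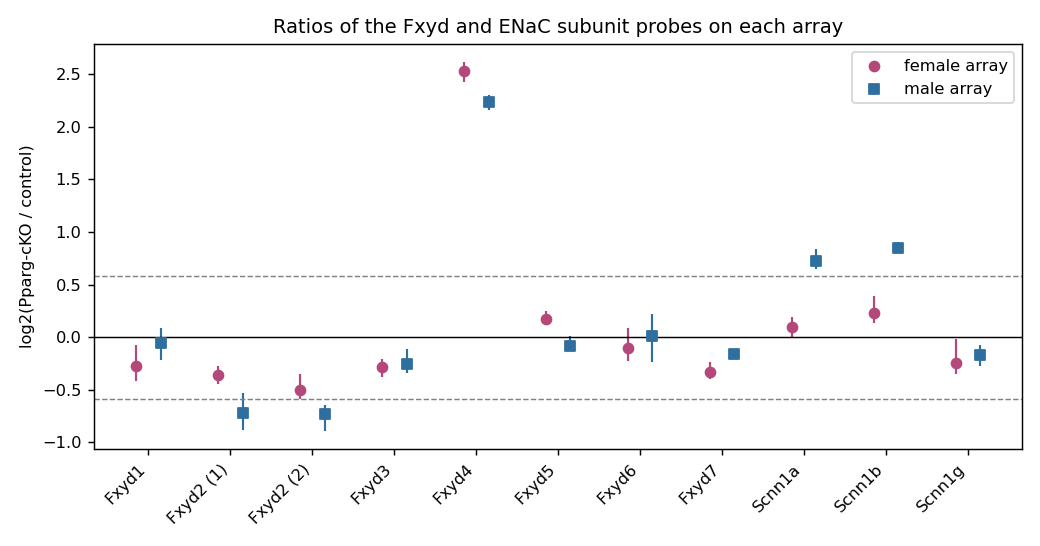
log2 ratio of Pparg-cKO over control for each Fxyd and ENaC subunit probe on the female (circles) and male (squares) array, with lines from the lowest to the highest spot of the probe and dashed lines at 1.5-fold. Fxyd4 lies at 2.53 and 2.24, Fxyd2 is below 0 with both probes, and Scnn1a and Scnn1b are past 1.5-fold on the male array alone.

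Most Fxyd genes lie in clusters in the genome. On chromosome 7, the probes of Fxyd5, Fxyd7, Fxyd1 and Fxyd3 lie within 40.8 kb, between 31817824 and 31858634 (mm9), and their mean ratios were 0.05, -0.25, -0.16 and -0.27 in that order. Fxyd7, Fxyd1 and Fxyd3 were lower on both arrays, and Fxyd5 had opposite signs. On chromosome 9, the probes of Fxyd6 and Fxyd2 lie within 14.2 kb, with mean ratios of -0.05 and -0.54, and Fxyd6 had opposite signs on the arrays. Within 100 kb of these clusters, 9 and 2 other genes were tested, and none passed the fold rule or was called by limma. Fxyd4 lies on chromosome 6, apart from the other Fxyd genes.

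The 3 ENaC subunits went different ways. Scnn1b encodes the beta subunit. Its probe, at 129061584 to 129061643 on chromosome 7 (mm9), had a signal of 126 in the female and 162 in the male Pparg-cKO pool against 95.4 and 91.8 in the control pools. Both Pparg-cKO pools were above both controls. The ratio was 0.23 for the female pair and 0.85 for the male pair, a mean of 0.54 ± 0.44 (SD, n = 2 arrays), so that the difference between the arrays, 0.62, was larger than the mean. The 4 spots ranged from 0.13 to 0.40 on the female and from 0.80 to 0.91 on the male array and did not overlap.

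Scnn1a, the alpha subunit, which the channel needs to conduct, was dim in all pools. Its signals were 16.02 and 32.7 in the female and male Pparg-cKO pools against 13.4 and 12.96 in the controls. In the male control pool 75% of its spots were well above background, and in the other pools all of them. The ratios were 0.10 and 0.72, a mean of 0.41 ± 0.44 (SD, n = 2 arrays). As with Scnn1b, the male Pparg-cKO pool stood above the other 3 pools. The mean was 0.63 by normexp without an offset and 0.80 by the scanner-processed signals.

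Scnn1g, the gamma subunit, was at 14.2 and 15.96 in the Pparg-cKO pools against 21.3 and 21.6 in the controls. The ratios were -0.25 and -0.17, a mean of -0.21 ± 0.050 (SD, n = 2 arrays), and both controls were above both Pparg-cKO pools. At this dim level the mean depends on the processing, at -0.30 by normexp without an offset and -0.50 by the scanner-processed signals. The probes of Scnn1g and Scnn1b lie 150 kb apart on chromosome 7, with the 3 other genes tested around them not called by limma.

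Across the members, 5 genes were lower on both arrays (Fxyd1, Fxyd2, Fxyd3, Fxyd7, Scnn1g), 3 were higher on both (Fxyd4, Scnn1a, Scnn1b) and 2 had opposite signs (Fxyd5, Fxyd6). These counts were 3, 4 and 3 under median centring, and 6, 3 and 1 by the scanner-processed signals, without an offset and by the deposited table. On the male array alone the fold rule took 3 members, Fxyd4, Fxyd2 and Scnn1b, and on the female array alone it took Fxyd4. The male array alone also passed more genes of the whole table, 965 higher and 288 lower, against 176 higher and 268 lower on the female array. How many genes were bright enough on a single array was not counted, so these counts have no share beside them. The members were chosen with the ratios known, and nothing is read from their counts.

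The pump that the FXYD proteins regulate was measured by 7 subunit genes, of which none was called by limma and 1 passed the fold rule. That gene was Atp1b1, the beta subunit that carries the pump to the membrane. Its signal was 4210 in the female and 6077 in the male Pparg-cKO pool against 2473 and 2529 in the control pools. Both Pparg-cKO pools were above both control pools, and the controls were nearly equal. The ratio was 0.80 for the female pair and 1.30 for the male pair, a mean of 1.05 ± 0.36 (SD, n = 2 arrays) and 2.07-fold, with a limma adjusted p of 0.0853 and a range from 0.00386 to 0.533 over the alternatives.

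Of the other subunits, Atp1b2, found in glia, was at -0.17 and 0.50, and Atp1b3, a widely expressed beta subunit, at -0.05 and 0.01. Atp1a4, of sperm, was at 0.13 and -0.48. The median mean ratio of the 7 was -0.02, against 0.01 over all genes tested. The related H,K-ATPase genes Atp4a, Atp4b and Atp12a had signals of 2.83 to 7.15 in all pools, well above background in 2 of the 4 pools each, and ratios between -0.06 and 0.16.

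**Figure D4:**
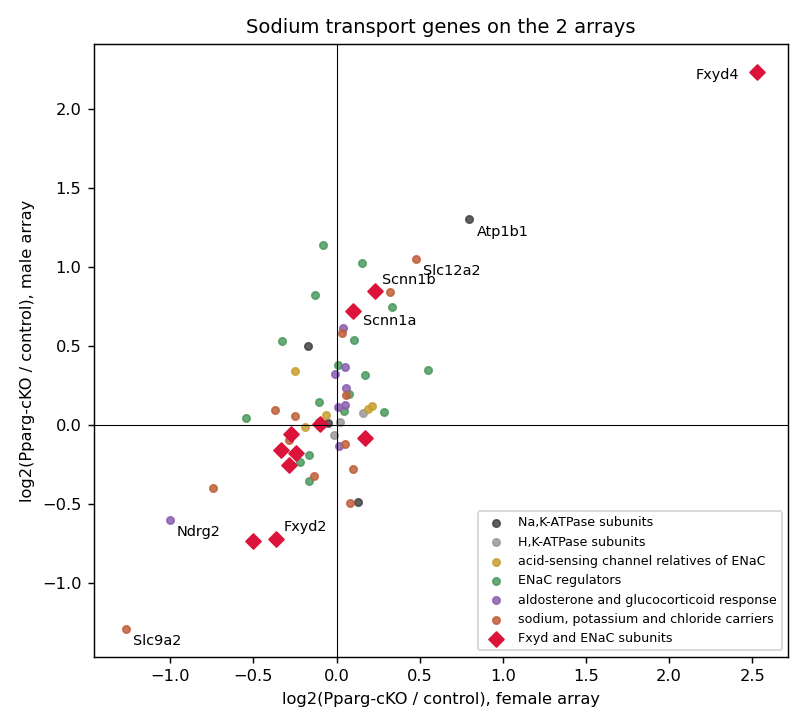
log2 ratio of Pparg-cKO over control on the male array against that on the female array, for the Fxyd and ENaC subunit probes (diamonds) and for the tested and reported genes of 6 sodium transport lists (dots, coloured by list). Fxyd4 lies apart at 2.53 and 2.24, Atp1b1 at 0.80 and 1.30 and Slc9a2 at -1.27 and -1.29, and a group of genes lies near 0 on the female array and above 0.5 on the male array.

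The 6 lists of sodium transport genes held 61 genes other than the members, of which 55 were tested. Limma called 1 of them lower and none higher, 1.82% against 0.751% of all genes tested. At an unadjusted p of 0.05 there were 9, or 16.4%, against 1914 of 22499 genes, or 8.51%. The gene that fell was Slc9a2, the apical sodium-proton exchanger NHE2. Its signal was 17.3 and 19.2 in the female and male Pparg-cKO pools against 73.8 and 72.4 in the control pools. All 4 values fell into separate ranges by genotype, and pools of a genotype were nearly equal. The ratios were -1.27 and -1.29, a mean of -1.28 ± 0.016 (SD, n = 2 arrays), with a limma adjusted p of 0.0185 and a range from 4.59e-05 to 0.533 over the alternatives. Normexp without an offset gave -1.65 and -1.68, and the scanner-processed signals -2.10 and -1.91. Its signal was under the 100 that the fold rule asks for. Of the 61, 35 were bright enough for the fold rule, and 1 of these was higher, Atp1b1, and 1 lower, Ndrg2.

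Ndrg2, an aldosterone-induced gene of the collecting duct, had signals of 3243 and 3531 in the Pparg-cKO pools against 6466 and 5505 in the controls. Its ratios were -1.004 and -0.60, a mean of -0.80 ± 0.28 (SD, n = 2 arrays), with a limma adjusted p of 0.131 and a range from 0.0156 to 0.533. Of the 8 aldosterone and glucocorticoid response genes no other passed either rule. Tsc22d3, or GILZ, and Sgk1, the kinase that keeps ENaC at the membrane, are induced by these hormones. They were at 0.01 and -0.13 and at -0.22 and -0.23. Nr3c1, the glucocorticoid receptor gene, was at 0.05 and 0.13, and Nr3c2, the mineralocorticoid receptor gene, had signals of 6.59 to 9.67. The median of that list was 0.12.

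Among 19 ENaC regulators, 18 were tested, none passed either rule, and the median mean ratio was 0.16, at -0.04 for the female pair and 0.26 for the male pair. Several had a ratio near 0 on the female array and a larger one on the male array. St14, or matriptase, and Furin are proteases that activate the channel directly or through other proteases, and were at 0.15 and 1.03 and at -0.08 and 1.14. Spint2, an inhibitor of such proteases, was at -0.13 and 0.82. Nedd4l, the ubiquitin ligase that removes ENaC from the membrane, was at 0.10 and 0.54, and Prss8, or prostasin, at -0.17 and -0.19. The 5 acid-sensing channel genes, relatives of ENaC, had a median of 0.05 and no call.

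Of 19 sodium, potassium and chloride carriers and channels, 14 were tested, and Slc9a2 was the one called. Slc12a2, the sodium-potassium-chloride cotransporter NKCC1, was at 0.48 and 1.05 with an adjusted p of 0.23. Slc12a1, Slc12a3 and Slc9a3, carriers of the kidney tubule, had signals of at most 2.74 and were not well above background in any pool. The median of the list was -0.09.

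Cell type markers were read beside Fxyd4 and ENaC, since both are known from collecting duct principal cells. Summed over 5 principal cell markers, the signal was 54.9 and 58.9 in the Pparg-cKO pools and 58.0 and 57.8 in the controls. Aqp2, the water channel, was at 23.9 and 21.8 against 28.1 and 25.8. Hsd11b2 was at 11.6 and 20.0 against 12.5 and 12.7, and Kcnj1 was not well above background in any pool. Avpr2, the vasopressin receptor gene, was at 8.63 and 8.31 against 6.12 and 5.23, higher in both Pparg-cKO pools as Fxyd4 was but well above background in 2 of the 4 pools. Aqp4, a water channel gene, was at 8.69 and 8.22 against 8.85 and 12.4. The markers thus differed in direction, and a part of principal cells in the Fxyd4 ratio was not tested. Intercalated cell markers summed to 115 and 103 against 102 and 103.

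Markers of the urothelium, of smooth muscle and of blood were read in the same pools. The 8 urothelial markers were well above background in all pools and summed to 51265 and 59448 in the Pparg-cKO pools against 82640 and 72622 in the controls. Upk3a was the largest part of these sums. Upk1a and Upk1b, uroplakins of the superficial cells (S cells), were lower by the fold rule, at -1.91 and -1.12 and at -1.30 and -0.73, with limma adjusted p of 0.0685 (range over the alternatives 0.000642 to 0.533) and 0.109 (0.00545 to 0.533). Both were called under median centring, at 0.00629 and 0.0367, and without an offset. Upk2 (-0.74 and -0.28), Upk3a (-0.31 and -0.17) and Trp63 (-0.53 and -0.44) were also lower on both arrays, and Krt5 was at -0.86 and 0.35. Epcam and Cdh1, expressed in all epithelial cells, were at 0.41 and 0.48 and at 0.07 and 1.10. The urothelial markers thus differed in direction. Cdh1, like Scnn1b and Scnn1a, had a larger ratio in the male pair than in the female pair. Whether the share of epithelium in the male pools had a part in these ratios was not tested. Smooth muscle markers, with Acta2 the largest part, summed to 103711 and 101050 against 114927 and 115969. Blood and immune markers, with Hba-a1 the largest part, summed to 56345 and 50751 against 49068 and 48871.

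The scans were processed in other ways to see how far the members' values move. The mean ratio of Fxyd4 lay between 2.38 and 2.63 under 5 alternatives to the normexp and loess values. The mean kept its sign in 5 of 5 alternatives for 10 of the 11 probes, and for Fxyd6 in 4 of 5, where median centring gave 0.01. Means near 0 and those of dim probes moved by much of their own size or more, from 0.02 to 0.15 for Fxyd5, from 0.41 to 0.81 for Scnn1a and from -0.57 to -0.19 for Scnn1g.

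**Figure D5:**
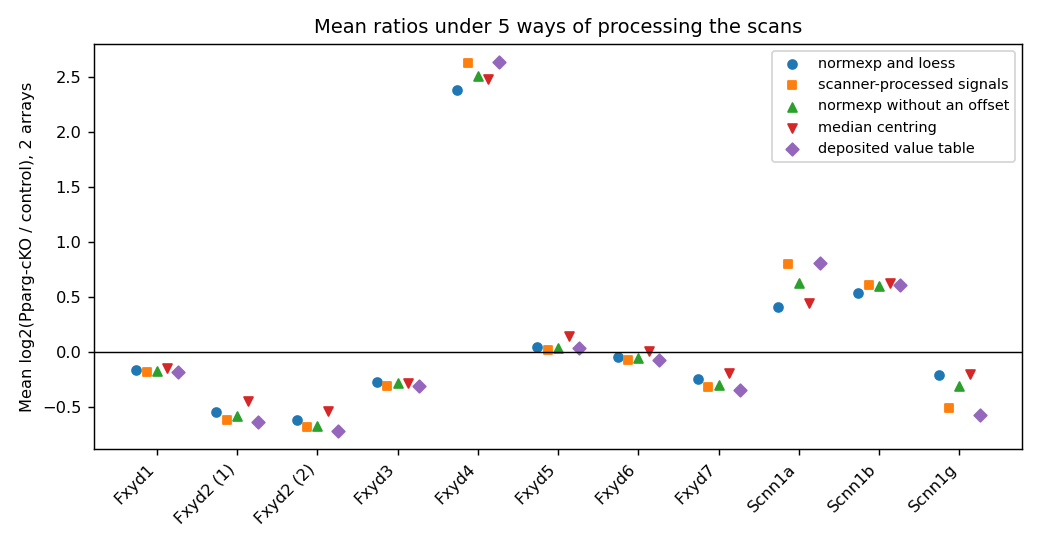
Mean log2 ratio of Pparg-cKO over control across the 2 arrays for each Fxyd and ENaC subunit probe, under 5 ways of processing the scans. Fxyd4 lies between 2.38 and 2.63, and the dim probes of Scnn1a and Scnn1g range from 0.41 to 0.81 and from -0.57 to -0.19.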

How the data were processed

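RNA of E18.5 ureters was hybridised to 2 two-colour Agilent arrays of 174979 spots, and the authors read them with Agilent Feature Extraction 10.7.3.1 (version per the labels). The deposited scanner files hold intensity on a linear scale, a log10 ratio that was not used here, and flags. A value table deposited by the authors holds signed fold changes on another scale, read as fold and used as an alternative and for the direction of the ratios (correlation with red over green of 0.996 and -0.998 on the 2 arrays). Flagged spots were left out (2.87% and 3.24%). Mean signals were corrected with normexp (offset 50) and each array was normalised by loess (limma 3.58.1, R 4.3.3), control spots having no weight. Log2 ratios were averaged over the 4 spots of a probe, and the brightest probe stood for a gene. Genes well above background in at least 1 channel of both arrays (22499) were tested with limma and adjusted by Benjamini-Hochberg. With 1 residual degree of freedom (prior 4.00), the number of arrays limits the precision. Nothing says whether the pools of a genotype came from separate litters, so p-values measure the spread between 2 arrays. Promoter windows were RefSeq's. Probe positions are those of the array design (mm9), and the gene symbols are the design's. Protein sequences were not used here.

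The members, the 6 pathway and 10 marker lists and the tests were chosen with earlier results of these data known. Named genes were all members, all pump subunits, list genes past the fold rule or called by limma, defining cell type markers, and the 5 genes nearest to Fxyd4, except that some list genes are not reported here. Other list genes and the neighbours of the members were named after their values were seen. Alternatives were scanner-processed signals, normexp without an offset, median centring, the deposited table, all spots, the median over probes, no filter on dim probes, signal thresholds of 50 and 200, 2-fold, and each array alone.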

Additional observations from a re-analysis of the deposited data

Results flagged for a closer look

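The female and male arrays went opposite ways for 2 members. The log2 ratio of the male array minus that of the female array was -0.25 for Fxyd5 and 0.11 for Fxyd6. Among the list genes reported here, 2 differed by 1.2-fold or more one way on the female array and the other way on the male array. That difference was 0.86 for Usp2, an ENaC deubiquitinase gene, and 1.203 for Krt5, a basal cell keratin gene. With 1 array a sex these differences were not tested.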

How the results depend on the processing

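The count of members past the fold rule was 1 with both arrays under every alternative run, always Fxyd4, and lay between 1 and 3 with each array alone, Fxyd2 and Scnn1b passing on the male array. Nothing is read from these counts, since the members were chosen with the ratios known. The mean ratio of Fxyd4 was 2.62 by the scanner-processed signals and 2.63 by the deposited table, and lay between 2.24 and 2.53 with each array alone. For the other 10 probes, 45 of 50 means moved by less than the SD between the arrays and 5 by more. That SD is large where the arrays disagree, so this tally does not measure how steady the means are. Scnn1a, with an SD of 0.44, counts as unmoved at 0.81 against 0.41. Fxyd3, with an SD of 0.022, counts as moved at -0.305 against -0.269. Keeping all spots could change the mean of Fxyd7 alone, since the other probes had no flagged spot. Genes past the fold rule numbered 112 at 2-fold, and 444 to 1253 with each array alone. Median centring gave 115 higher and 102 lower genes by the fold rule, 53.0% higher against 43.0%. Genes called by limma numbered 571 without an offset, 94 without the filter on dim probes and 0 by the deposited table (2101 at an unadjusted p of 0.05). Sodium transport list genes called numbered 7 without an offset (Atp1b1, Cftr, Ndrg2, Slc9a2, Slc12a2, Kcnj16, Kcnn4) and 0 by the deposited table (9 at an unadjusted p of 0.05), where Slc9a2 was not called, at ratios of -1.99 and -1.83. The causes were not tested. Limma has no value with 1 array. Each ratio is already taken within an array, so the fit is itself paired, and there was no further replicate block to add. Scnn1a, Scnn1g and Fxyd7 were dim, and their ratios differ between ways of processing.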
